A study of Mus musculus with 8 samples.

Results

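The 5 genes described here encode the adult alpha chains of haemoglobin (Hba-a1 and Hba-a2), its adult beta chains (Hbb-bs and Hbb-bt) and Alas2, the erythroid form of 5-aminolevulinate synthase. They were chosen by name as the erythroid genes of the table, 5 of the 22430 genes listed, and all 5 had enough counts to be tested. RNA was taken from brain hemispheres of 8 male C57Bl/6JRj mice, named whole brain in the labels, of which 4 were young adults of 6 months (6m) and 4 were aged animals of 24 months (24m). No treatment or transgene distinguished the animals, and each library came from a different animal. Polyadenylated RNA was sequenced, and reads were counted per gene by the authors. The comparison asked how the brain transcriptome differed between the ages. The dissected tissue was rinsed in sucrose buffer, and the sources used here do not say whether the blood vessels were flushed, so how much blood was in the samples is not known.

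Haemoglobin carries oxygen in red blood cells and is assembled from a pair of alpha and a pair of beta chains, each holding a haem group. Alas2 catalyses the rate-limiting step of haem synthesis in the erythroid lineage, whereas its relative Alas1 serves the other tissues. Red cell precursors transcribe these genes at very high levels, reticulocytes still hold the messages after the nucleus has been lost, and mature red cells retain little RNA. Haemoglobin messages have also been described in neurons, dopamine neurons among them, so that in a whole tissue the cell of origin cannot be read from the counts. In bulk samples of this kind, fewer cells of a type and less RNA per cell cannot be told apart.

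The adult chain genes lie in a cluster on each of 2 chromosomes. On GRCm39 the alpha genes were on the plus strand of chromosome 11, Hba-a1 (ENSMUSG00000069919) at 32233186 to 32234504 and Hba-a2 (ENSMUSG00000069917) at 32246168 to 32247320. The beta genes were on the minus strand of chromosome 7, Hbb-bs (ENSMUSG00000052305) at 103475730 to 103482989 and Hbb-bt (ENSMUSG00000073940) at 103461727 to 103465047. Alas2 (ENSMUSG00000025270) was on the plus strand of the X chromosome at 149330371 to 149353634. The canonical transcript of each chain gene had 3 exons and 647 to 738 bases, and that of Alas2 had 11 exons and 2037 bases. Hbb-bs overlapped 3 other annotated genes, 1 of them on its own strand. Hbb-bt overlapped the gene Gm57232 and Alas2 the genes Apex2 and Mir3620, all on the opposite strand. Reads in these overlaps are uncertain, because no source used here gives the strand option of the counting.

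The copies within each chain type were almost the same sequence, which limits how far their counts can be read as separate measurements. Over the coding sequence Hba-a1 and Hba-a2 differed at 1 of 429 bases and Hbb-bs and Hbb-bt at 1 of 444 bases. The encoded proteins, of 142 and 147 residues, were identical within each pair. The coding stretches around the differing bases follow, from base 366 to base 396 of the alpha genes and from base 402 to base 432 of the beta genes, because they are the only coding positions that distinguish the copies. The capital letter marks the differing base, coding base 381 in the alpha genes and coding base 417 in the beta genes.
Hba-a1: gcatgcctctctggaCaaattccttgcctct
Hba-a2: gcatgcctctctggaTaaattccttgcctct
Hbb-bs: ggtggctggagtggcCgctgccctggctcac
Hbb-bt: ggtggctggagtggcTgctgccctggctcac

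Of all stretches as long as a sequencing read in the canonical transcript, 60.9% of those in Hba-a1 occurred in Hba-a2 and 72.0% of those in Hba-a2 occurred in Hba-a1. The corresponding shares were 54.5% for Hbb-bs and 50.5% for Hbb-bt. A read from such a stretch fits both copies, and how the authors' counting treated such reads was not stated, so the split between copies is uncertain. Alpha and beta genes shared no such stretch. Their coding sequences were 61.8% identical and their proteins 43.0% identical, so alpha and beta counts are separate measurements.

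The promoters of the 5 genes are printed as a description of their sequence, and their part in the levels was not tested. Each line gives the 150 bases before the transcription start in RefSeq on build GRCm38.p6, read in the direction of the gene. Capitals mark 4 short motifs searched on both strands. TATAA is the TATA box core, and its reverse complement is TTATA. The letters of the CCAAT box read ATTGG on the other strand. The CACCC box of erythroid promoters reads GGGTG on the other strand, and GATAA, the motif of factors such as GATA1, reads TTATC. In Hbb-bt a match of ATTGG directly precedes a match of CCAAT.
Hba-a1, chr11:32283522-32283671, plus strand: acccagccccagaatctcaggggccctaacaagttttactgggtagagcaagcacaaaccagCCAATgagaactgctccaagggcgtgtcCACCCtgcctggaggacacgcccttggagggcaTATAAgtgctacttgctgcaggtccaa
Hba-a2, chr11:32296342-32296491, plus strand: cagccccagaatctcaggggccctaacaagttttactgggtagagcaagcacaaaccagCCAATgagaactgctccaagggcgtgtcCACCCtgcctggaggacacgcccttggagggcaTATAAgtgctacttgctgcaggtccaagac
Hbb-bs, chr7:103827929-103828078, minus strand: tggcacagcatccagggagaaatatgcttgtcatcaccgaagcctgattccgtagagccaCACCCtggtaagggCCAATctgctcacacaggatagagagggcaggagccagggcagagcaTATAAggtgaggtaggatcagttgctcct
Hbb-bt, chr7:103813924-103814073, minus strand: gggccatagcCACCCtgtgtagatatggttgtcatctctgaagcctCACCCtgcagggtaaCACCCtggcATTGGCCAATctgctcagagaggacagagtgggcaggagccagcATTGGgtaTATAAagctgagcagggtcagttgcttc
Alas2, chrX:150547267-150547416, plus strand: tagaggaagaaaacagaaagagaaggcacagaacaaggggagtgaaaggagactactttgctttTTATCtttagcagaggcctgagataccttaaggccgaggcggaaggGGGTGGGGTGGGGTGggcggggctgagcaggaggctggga

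In the 4 chain promoters TATAA began 27 to 30 bases before the start and CCAAT on the same strand 75 to 91 bases before it. In Alas2 TATAA began 207 bases before the start, outside the stretch shown. Over the 250 bases before the start, 5 of 5 promoters held TATAA on either strand, as many held the GATAA and the CACCC letters, and 4 of 5 held CCAAT. Among 32851 RefSeq mouse promoters of the same length, TATAA occurred in 22.8%, GATAA in 22.6%, CACCC in 52.0% and CCAAT in 33.8%. In the chain genes the nearest GATAA began 182 to 209 bases before the start, outside the stretch shown, and in Alas2 its reverse complement TTATC began 86 bases before it. The letters of CCAAT were not in the 250 bases of Alas2. Over 250 bases the alpha promoters were 97.6% identical and the beta promoters 70.9%, against 52.9% between Hba-a1 and Hbb-bs. Matches of this kind describe letters and not bound sites.

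Library totals were 63460940 to 103462414 counts, the largest being 24m replicate 1. Of 16730 genes tested, 43.6% were called different between the ages, 4237 higher and 3058 lower at 24m. A gene was called where the edgeR adjusted p was at most 0.05 and the log2 fold change at least 0.58 in size. The library 24m replicate 1 stood apart from the other 24m libraries in the ratio of alpha to beta counts and in lymphocyte markers and had the highest member levels among them, so the fits of the members and of the gene lists are also given without it. It held 430557 counts of the 5 genes, against 108365 to 176770 in the other 24m libraries and 358611 to 464379 in the 6m libraries. It also held 22.1 CPM (counts scaled to 1000000 library counts) summed over 12 lymphocyte markers, against 2.49 to 3.80 in the other 24m libraries. Together the 5 genes took 0.602%, 0.629%, 0.722% and 0.481% of all counts in the young libraries, replicates 1 to 4 in order, and 0.416%, 0.219%, 0.230% and 0.141% in the aged ones.

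All 5 genes fell with age, the chain genes to less than the lowest 6m level in every aged brain. On the scale of the fit the fall was 2.66-fold to 2.87-fold for the chain genes and 2.05-fold for Alas2, and with the trend of fold change with transcript length removed it was 1.52-fold to 1.68-fold and 1.72-fold. The share of genes called lower in this comparison was 18.3%, and the 5 members were 5 of 5.

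Hba-a1, an alpha chain gene, was at 1635, 1707, 1968 and 1332 CPM in the 6m libraries (replicates 1 to 4, in that order here and for the other genes). Its level in the 24m libraries was 1135, 630, 659 and 404 CPM. The ages did not overlap, and the highest 24m value was that of replicate 1. The mean was 1661 ± 262 CPM at 6m and 707 ± 307 CPM at 24m (SD, n = 4 each), which the fit gave as -1.42 ± 0.30 on the log2 scale (± SE here and for the other genes, adjusted p = 0.00249 with edgeR).

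Hba-a2, the second alpha chain gene, was at 1585, 1623, 1881 and 1261 CPM in the 6m libraries and at 1082, 608, 639 and 388 CPM in the 24m libraries. It followed Hba-a1 library by library and its ages did not overlap. Its mean went from 1587 ± 254 to 679 ± 291 CPM (SD, n = 4 each), or -1.41 ± 0.29 on the log2 scale (adjusted p = 0.00246 with edgeR).

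Hbb-bs, a beta chain gene, was at 1553, 1632, 1880 and 1237 CPM in the 6m libraries and at 1067, 524, 560 and 343 CPM in the 24m libraries. The order of the libraries was that of the alpha genes, again without overlap between ages. The mean was 1576 ± 265 CPM at 6m and 624 ± 311 CPM at 24m (SD, n = 4 each), and the fitted change -1.52 ± 0.33 (log2, adjusted p = 0.00294 with edgeR).

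Hbb-bt, the other beta chain gene, was at 1233, 1309, 1478 and 970 CPM in the 6m libraries and at 864, 418, 439 and 268 CPM in the 24m libraries. Every 24m value lay under every 6m value. The mean was 1247 ± 212 CPM at 6m and 497 ± 256 CPM at 24m (SD, n = 4 each), and the fitted change -1.51 ± 0.34 (log2, adjusted p = 0.00348 with edgeR).

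Alas2, the enzyme gene, was at 14.5, 16.04, 17.7 and 12.1 CPM in the 6m libraries and at 13.4, 7.64, 7.64 and 4.76 CPM in the 24m libraries. On this scale the ages overlapped, since 24m replicate 1 lay above 6m replicate 4. After scaling by trimmed mean of M values (TMM) factors, as in the fit, they did not overlap, with 13.4 in 24m replicate 1 against 13.7 in 6m replicate 4. The mean was 15.1 ± 2.38 CPM at 6m and 8.36 ± 3.62 CPM at 24m (SD, n = 4 each), and the fitted change -1.04 ± 0.29 (log2, adjusted p = 0.0116 with edgeR). On the TMM scale each of the 5 genes had every 24m library under every 6m library, as had 26.8% of all genes tested.

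**Figure D1:**
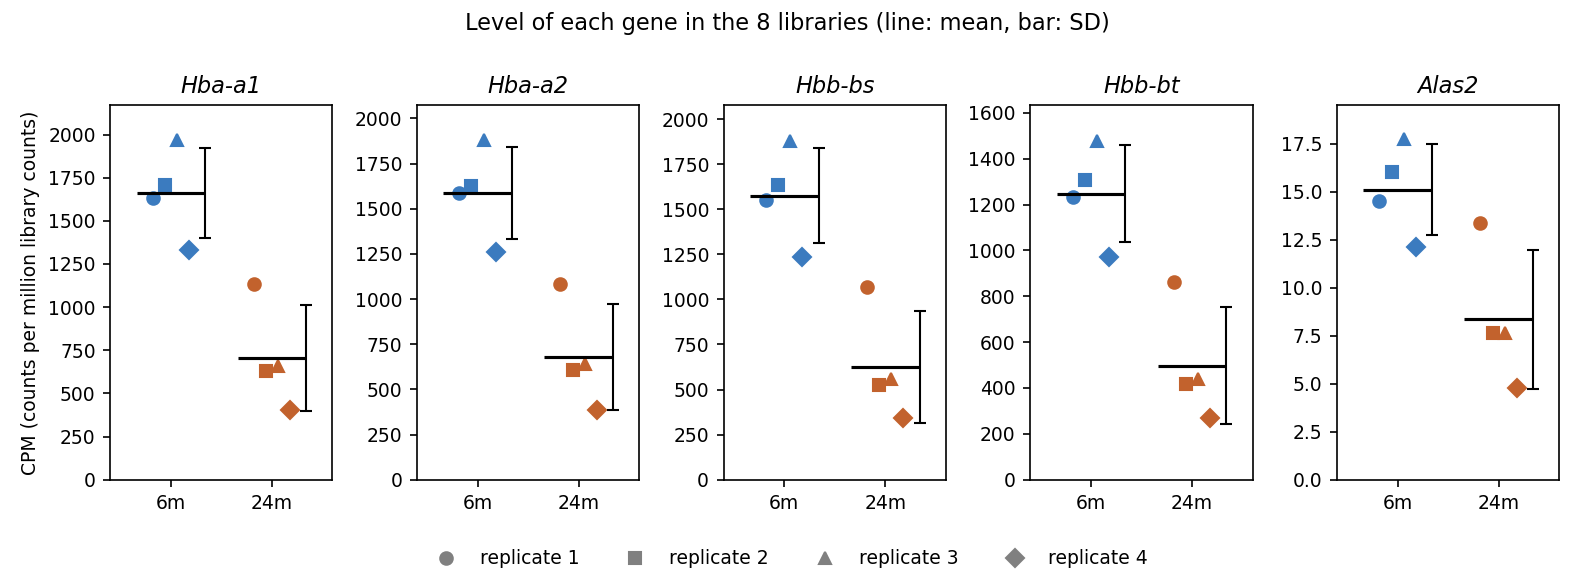
Level of each gene in CPM (counts scaled to 1000000 library counts, vertical axis, a separate scale for each gene) at 6m and 24m, with a symbol for each replicate number, the mean as a line and the SD as a bar. The 24m libraries lie under the 6m libraries in the chain genes, with replicate 1 highest at 24m, and in Alas2 that library, at 13.4 CPM, lies above the lowest 6m library, at 12.1 CPM.

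The share of tested genes with a smaller log2 fold change ran from 0.717% for Hbb-bs to 1.05% for Hba-a2 among the chain genes and was 5.15% for Alas2. These ranks depended on the processing. With the trend of fold change with transcript length removed, the shares were 10.2% for Hbb-bt to 15.2% for Hba-a2 and 9.37% for Alas2, and after quantile normalization 3.51% for Hbb-bs to 5.67% for Hba-a2 and 3.40% for Alas2. The spread between animals was wider at 24m. The coefficient of variation of CPM was 15.7% to 16.97% over the 5 genes at 6m and 42.8% to 51.6% at 24m. The highest 24m library held 2.79 to 3.23 times the CPM of the lowest, against 1.46 to 1.52 times at 6m. Without 24m replicate 1 the coefficient of variation at 24m was 24.5% to 25.1% over 3 libraries.

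Without 24m replicate 1 the falls were larger in each gene. This follows from leaving out the aged library with the highest member levels, so the values are given as a description, with no p. The log2 fold change was then -1.78 for Hba-a1, -1.77 for Hba-a2, -1.95 for Hbb-bs, -1.96 for Hbb-bt and -1.40 for Alas2, and 21.6% of all genes were called lower in that fit.

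Fold changes in this comparison varied with transcript length, and the chain transcripts are short. Across 16677 genes, which are not independent replicates, Pearson r between log2 fold change and log2 length was 0.50. The median log2 fold change was -0.78 over the 10% of genes with the shortest transcripts and 0.77 over the 10% with the longest. Only 2.46% of genes had a shorter transcript than Hbb-bt and 24.8% a shorter one than Alas2. With the length trend removed, log2 fold changes were -0.66 ± 0.19 for Hba-a1, -0.60 ± 0.19 for Hba-a2, -0.74 ± 0.21 for Hbb-bs, -0.75 ± 0.22 for Hbb-bt and -0.78 ± 0.25 for Alas2 (SE, edgeR adjusted p from 0.0137 to 0.02). The members were still 5 of 5 called lower, where 14.5% of genes were, with the alpha genes close to the fold threshold. With the trend removed and 24m replicate 1 left out, a fit added after the data were seen, they lay between -0.77 for Hba-a2 and -1.08 for Alas2. The part of transcript length in the fall of the chain genes was not tested.

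**Figure D2:**
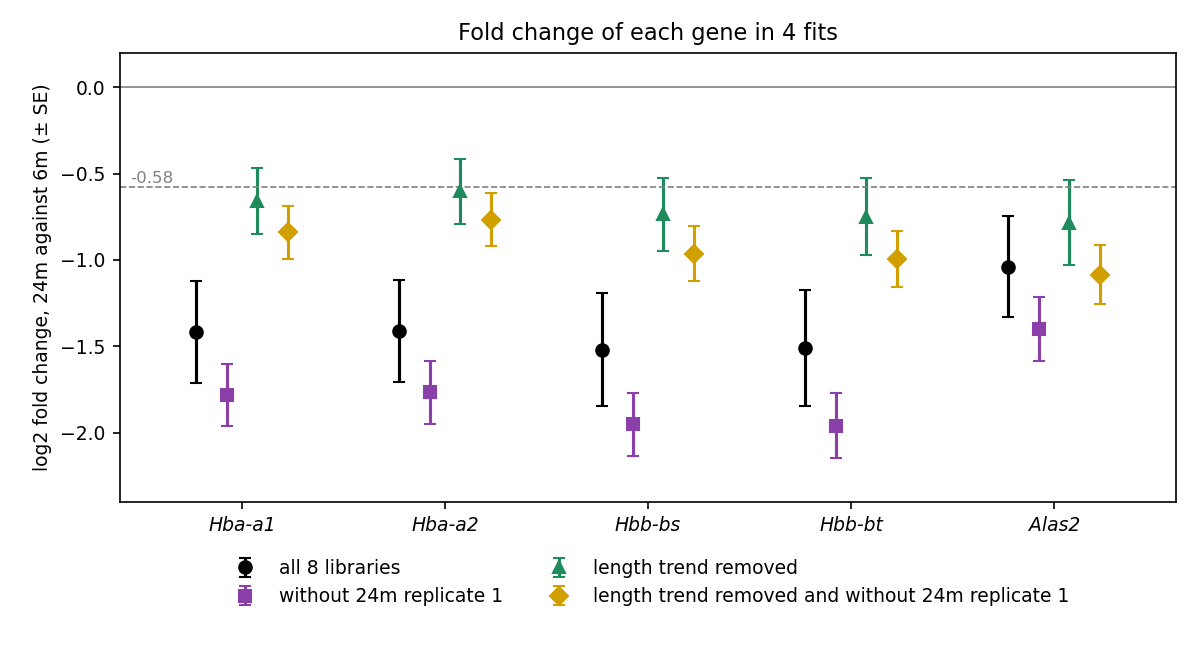
Log2 fold change of 24m against 6m with its SE (vertical axis) for each gene in 4 fits, with the calling threshold of -0.58 as a dashed line. All 20 values lie under 0 and under the threshold, those without 24m replicate 1 are the lowest, and removing the length trend brings the chain genes from between -1.52 and -1.41 to between -0.75 and -0.60.

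Per transcript length, the chain genes were at similar levels and Alas2 far under them. As CPM per kilobase of the canonical transcript (RPKM), 6m levels were 2453 ± 393 for Hba-a2, 2373 ± 399 for Hbb-bs, 2250 ± 354 for Hba-a1, 1772 ± 301 for Hbb-bt and 7.42 ± 1.17 for Alas2 (SD, n = 4). Between animals, neighbouring chain genes in that order differed by less than the SD except Hba-a1 and Hbb-bt, whose ranges still overlapped. At 24m the RPKM levels were 1050 ± 450 for Hba-a2, 958 ± 416 for Hba-a1, 939 ± 468 for Hbb-bs, 706 ± 364 for Hbb-bt and 4.10 ± 1.78 for Alas2 (SD, n = 4). Within each 6m library and within 24m replicate 1 the order was Hba-a2, Hbb-bs, Hba-a1, Hbb-bt and Alas2, while in the other 3 libraries of 24m Hba-a1 stood above Hbb-bs.

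The 5 genes varied together across animals. Pearson r between log2 CPM of any pair was 0.991 or more over the 8 libraries, and 0.996 or more after the mean of each age had been subtracted. These points share libraries and scaling factors, and the correlations are given as a description. As the mean deviation from the age mean on the log2 scale over the 5 genes, 24m replicate 1 was at 0.94 and 24m replicate 4 at -0.80, while the 6m libraries lay between -0.26 and 0.22.

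The copies of a chain were in similar proportion at both ages, within the limits set by their shared sequence. Hba-a1 held 50.8%, 51.3%, 51.1% and 51.4% of the alpha counts in the 6m libraries and 51.2%, 50.9%, 50.8% and 51.0% in the 24m libraries. The means were 51.1% ± 0.258 and 51.0% ± 0.172 (SD, n = 4 each), a difference within the spread between libraries (exact two-sided permutation p = 0.343, 0.457 adjusted over the 4 ratios). Hbb-bs held 55.5% to 56.1% of the beta counts at 6m and 55.3% to 56.1% at 24m, with a mean of 55.8% at each age (exact permutation p = 0.886).

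The ratio of alpha to beta counts was 1.16, 1.13, 1.15 and 1.17 in the 6m libraries and 1.15, 1.31, 1.30 and 1.30 in the 24m libraries. The ratio of 24m replicate 1 lay among the 6m libraries, and the other 24m libraries lay above all of them. The means were 1.15 ± 0.0178 and 1.26 ± 0.0783 (SD, n = 4 each), and the difference of 0.13 on the log2 scale did not pass the test (exact permutation p = 0.0857, 0.171 adjusted over the 4 ratios). Without 24m replicate 1 the difference was 0.18, given with no test, since that library was left out for its place in this ratio.

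Relative to the chain counts, Alas2 was higher in every 24m library than in any 6m library. Per 1000 chain counts, 2.42, 2.56, 2.46 and 2.53 Alas2 counts were found in the 6m libraries and 3.23, 3.50, 3.33 and 3.40 in the 24m libraries. The library 24m replicate 1, the highest at 24m in the level of every member, was the lowest of the 24m libraries in this ratio. The means were 2.49 ± 0.0642 and 3.36 ± 0.116 (SD, n = 4 each), a difference of 0.43 on the log2 scale (exact permutation p = 0.0286, the smallest that 4 against 4 libraries allow, and 0.114 adjusted over the 4 ratios, so that it did not pass the correction). The Alas2 transcript is longer than those of the chains, and the difference turned round where length was taken into account. The log2 fold change of Alas2 exceeded the mean of the chains by 0.43 in the fit over all libraries and was under it by 0.10 with the length trend removed (difference -0.10). After quantile normalization the difference was -0.07.

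**Figure D3:**
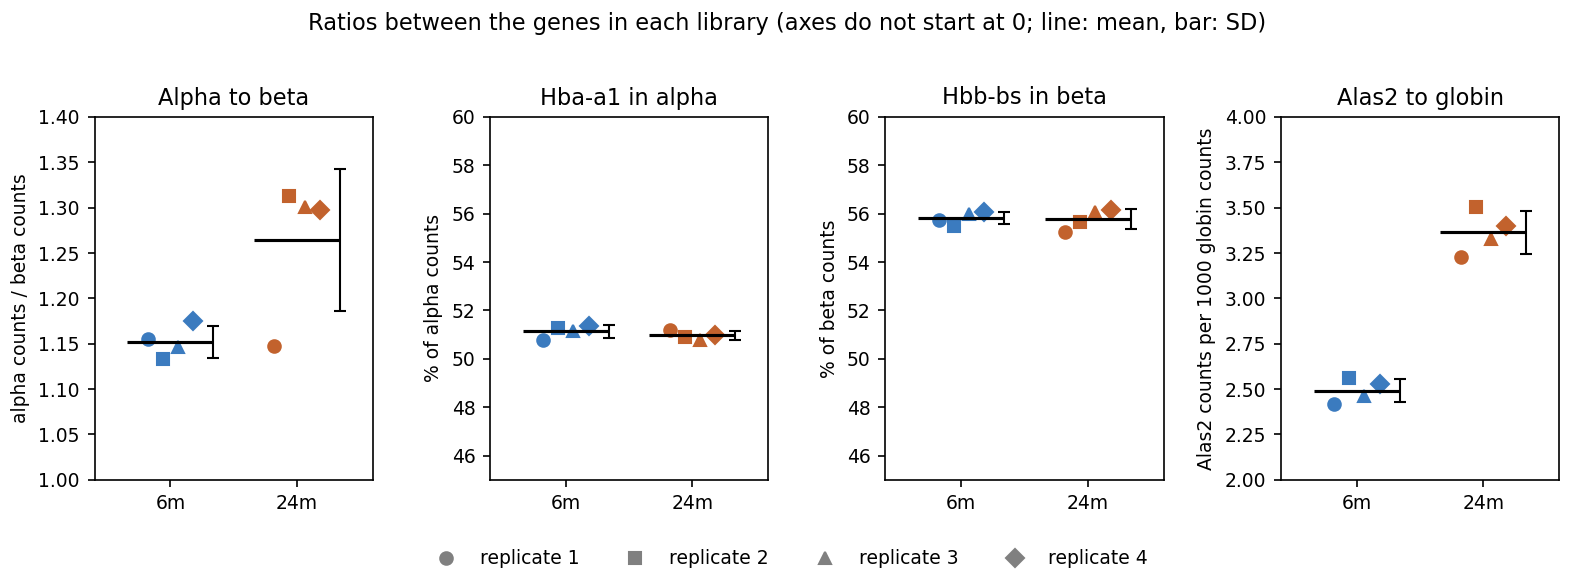
Ratio of alpha to beta counts, share of Hba-a1 in the alpha counts and of Hbb-bs in the beta counts (percent), and Alas2 counts per 1000 chain counts (vertical axes, which do not start at 0) in the libraries of each age, with the mean as a line and the SD as a bar. The shares of the copies lie at the same level at both ages, 24m replicate 1 stands with the 6m libraries in the alpha to beta ratio, at 1.15, and the Alas2 ratio separates the ages, from 2.42 to 2.56 at 6m and from 3.23 to 3.50 at 24m.

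The embryonic globins were nearly absent. Hba-x and Hbb-bh2 had no count in any library, Hbb-y had 1 to 3 counts per library, and Hbb-bh1 had 10 counts in 6m replicate 2, 1 in 6m replicate 3 and none elsewhere. Of 9 other globin genes 5 were tested, of which 1 was called lower and none higher (median log2 fold change -0.54, against 0.00 over all genes tested). Neuroglobin (Ngb), the oxygen-binding globin of neurons, fell from 21.7 ± 2.34 to 16.6 ± 3.59 CPM (SD, n = 4 each), or by 0.59 ± 0.18 on the log2 scale (edgeR adjusted p = 0.0162). With the length trend removed Ngb was not called (-0.16, adjusted p = 0.317), no gene of the list was called lower and its median turned to 0.23. No gene of the list was called with library totals alone either (median -0.34). The list had 2 genes called lower and a median of -0.63 when 24m replicate 1 was left out. Cytoglobin (Cygb), found in fibroblasts and some neurons, was at 0.35 ± 0.12 on that scale (adjusted p = 0.0268), under the fold threshold.

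The other genes of haem synthesis and haem transport were called in both directions. Of 21 tested, 4 were called higher and 6 lower (median log2 fold change -0.17), where 18.3% of all genes tested were called lower. Alas1, the form of the enzyme used outside the erythroid lineage, was at -0.05 ± 0.08 on the log2 scale (edgeR adjusted p = 0.575), with 88.7 ± 2.31 CPM at 6m and 99.2 ± 3.21 CPM at 24m (SD, n = 4 each). Its CPM was higher in every 24m library than in any 6m library, and the sign of the small fitted change turned with the TMM scaling. Among the genes called were Glrx5, which serves iron-sulphur assembly (-1.12 ± 0.18, adjusted p = 0.000616) and Abcb10, a mitochondrial transporter that stabilizes the iron importer of erythroid cells (0.97 ± 0.10, adjusted p = 6.89e-05). Alad, the enzyme that follows Alas2 in the pathway, fell by 0.67 on the log2 scale (adjusted p = 0.00385), and Urod fell by 0.73 (adjusted p = 0.00109). The gene for ferrochelatase (Fech), which inserts the iron, was at 0.36 ± 0.09 and missed the fold threshold, and its sign turned with the length trend removed (-0.28). Glrx5, Abcb10, Alad and Urod were called in the same direction in that fit. With library totals alone, which moved the median of all genes to 0.21, 2 genes of this list were called lower and 5 higher, and the median turned to 0.05. The counts were again 4 higher and 6 lower without 24m replicate 1 (median -0.19).

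Among 8 genes of haem breakdown and haemoglobin scavenging, 3 were called lower and 1 higher (median log2 fold change -0.39). Over all genes tested 18.3% were called lower. The biliverdin reductases fell, Blvrb by 0.81 (edgeR adjusted p = 0.00359) and Blvra by 0.64 (adjusted p = 0.00094), and Cd163, the receptor for haemoglobin bound to haptoglobin, rose by 0.70 (adjusted p = 0.0163). Hmox1, the inducible haem oxygenase, was at 0.43 ± 0.16 on the log2 scale (adjusted p = 0.0353), under the fold threshold. Blvrb (-0.19), Blvra (-0.01) and Cd163 (0.32) were not called with the length trend removed. In that fit Hmox1 was called higher (0.88, adjusted p = 0.000126) and Hmox2, the constitutive haem oxygenase, was the 1 gene called lower (-0.98, adjusted p = 0.00247). Leaving out 24m replicate 1 again gave 3 genes called lower and 1 higher (median -0.51). The balance of calls turned with library totals alone, to 1 lower and 3 higher (median -0.18).

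Of 18 tested genes of the red cell membrane and red cell enzymes, 6 were called higher and 3 lower. Over all 16730 genes tested, 4237 were called higher and 3058 lower. The median log2 fold change of the list was 0.29, the opposite sign to the median of the 5 members. The largest changes were in the membrane skeleton genes Add2 (1.94 ± 0.17), Sptb (1.92 ± 0.15) and Epb41 (1.42 ± 0.15), which neurons also express. Bpgm, which makes the phosphate that lowers the oxygen affinity of haemoglobin, was at -0.30 ± 0.08 on the log2 scale (edgeR adjusted p = 0.0076), under the fold threshold. Among 12 tested erythroid regulators 1 was called higher (Tal1, 1.01 ± 0.22) and 1 lower (Isg20, -1.05 ± 0.23), with a median of -0.20. With the length trend removed Add2, Sptb, Epb41 and Tal1 were still called higher, no gene of the membrane and enzyme list was called lower, and Isg20 was not called (-0.54). When 24m replicate 1 was left out, the membrane and enzyme genes had 7 called higher and 3 lower (median 0.20), and the regulators 1 higher and 2 lower (median -0.20). With library totals alone the membrane and enzyme genes had 8 called higher and none lower (median 0.50), and the regulators 2 higher and 1 lower (median 0.02).

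Markers of reticulocytes and late erythroblasts were at or near 0, beside at least 108365 summed counts of the 5 members in each library. Of 12 such markers 11 were listed and 4 tested, none was called in either direction with edgeR (2 at an unadjusted p under 0.05), DESeq2 called none and limma-voom 1, and their median log2 fold change was -0.04. Slc4a1, the anion exchanger band 3 and a defining marker, had 16 to 27 counts in the 6m libraries and 28 to 72 in the 24m libraries. These counts are not scaled for library totals. In CPM the ages of Slc4a1 overlapped, at 0.215 to 0.425 at 6m and 0.384 to 0.696 at 24m. Its fitted change was 0.43 ± 0.30 on the log2 scale (edgeR adjusted p = 0.227). Rhag had 1 count in 24m replicate 1 and 0 elsewhere. Summed over the list, the level was 1.07 to 1.47 CPM at 6m and 1.32 to 1.57 CPM at 24m. The ranges of the ages overlapped, and the highest sum was that of 24m replicate 1. Without that library, 1 of its genes was called higher and 1 lower, and with library totals alone 1 was called higher.

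Markers of other blood cells were also called lower in part. Of 7 tested platelet markers 6 were called lower (median log2 fold change -0.77), where 18.3% of all genes tested were. The largest changes were in Gp9 (-1.22 ± 0.23), Treml1 (-1.02 ± 0.26) and Pf4 (-0.86 ± 0.25). Pearson r with the mean profile of the 5 members, after the mean of each age had been subtracted, was 0.173, -0.295 and 0.804 in that order. The summed level of the platelet markers was 33.9 to 37.6 CPM at 6m and 23.2 to 28.4 CPM at 24m, without overlap. On the TMM scale 26.8% of all genes tested had every 24m library under every 6m library. Most of the platelet sum came from Gp1bb, at 23.6 CPM at 6m and 17.5 CPM at 24m, which was at 0.03 on the log2 scale with the length trend removed. With the length trend removed Gp9 (-0.44), Treml1 (-0.42) and Pf4 (-0.38) were not called (edgeR adjusted p = 0.116, 0.235 and 0.141), and the 2 platelet markers called lower were Itga2b (-1.34) and Gp1ba (-0.66). In that fit 14.5% of all genes were called lower. The platelet list again had 6 called lower without 24m replicate 1 (median -0.94), and 3 with library totals alone (median -0.57). Of 8 tested neutrophil markers 4 were called lower (median -1.06), with the largest changes in Retnlg (-1.43 ± 0.47), Camp (-1.43 ± 0.54) and S100a9 (-1.40 ± 0.50). The ages overlapped in each of these, and counts were low. Retnlg had 5 to 19 counts per library at 6m and 3 to 10 at 24m, and Camp had 10 to 36 and 5 to 29. Retnlg was not tested without 24m replicate 1. The summed level of the neutrophil markers overlapped between the ages, at 2.1 to 7.01 CPM at 6m and 1.38 to 5.22 CPM at 24m, and no neutrophil marker was called lower without 24m replicate 2. In the fit with the length trend removed Retnlg (-0.57), Camp (-0.65) and S100a9 (-0.52) were not called, 1 neutrophil marker was called lower (Mpo, -0.91) and the median was -0.54. The neutrophil list had 5 called lower without 24m replicate 1 (median -1.52), and 2 with library totals alone (median -0.85). The part of platelets and neutrophils in the fall of the haemoglobin genes was not tested.

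Lymphocyte markers were summed to 3.56 to 4.65 CPM at 6m. At 24m they were at 22.1 CPM in replicate 1 and at 2.49 to 3.80 CPM in the other libraries. Of 7 tested, 2 were called higher (Jchain, 3.63 ± 1.34, and Nkg7, 2.21 ± 0.64) and 1 lower (Trac, -0.70 ± 0.18). The median log2 fold change of 1.29 became -0.47 without 24m replicate 1, with 1 gene called higher and 3 lower. Trac was not called with the length trend removed (0.04). In that fit Jchain (3.99) and Nkg7 (2.86) were again called higher, and Mzb1 (3.21) and Cd3e (1.74) were called higher as well. With library totals alone no lymphocyte marker was called lower. In 24m replicate 1 Jchain, of plasma cells, was at 4.21 CPM against 0.0779 to 0.356 CPM in the other 24m libraries. The part of these cells in the higher haemoglobin level of that library was not tested.

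**Figure D4:**
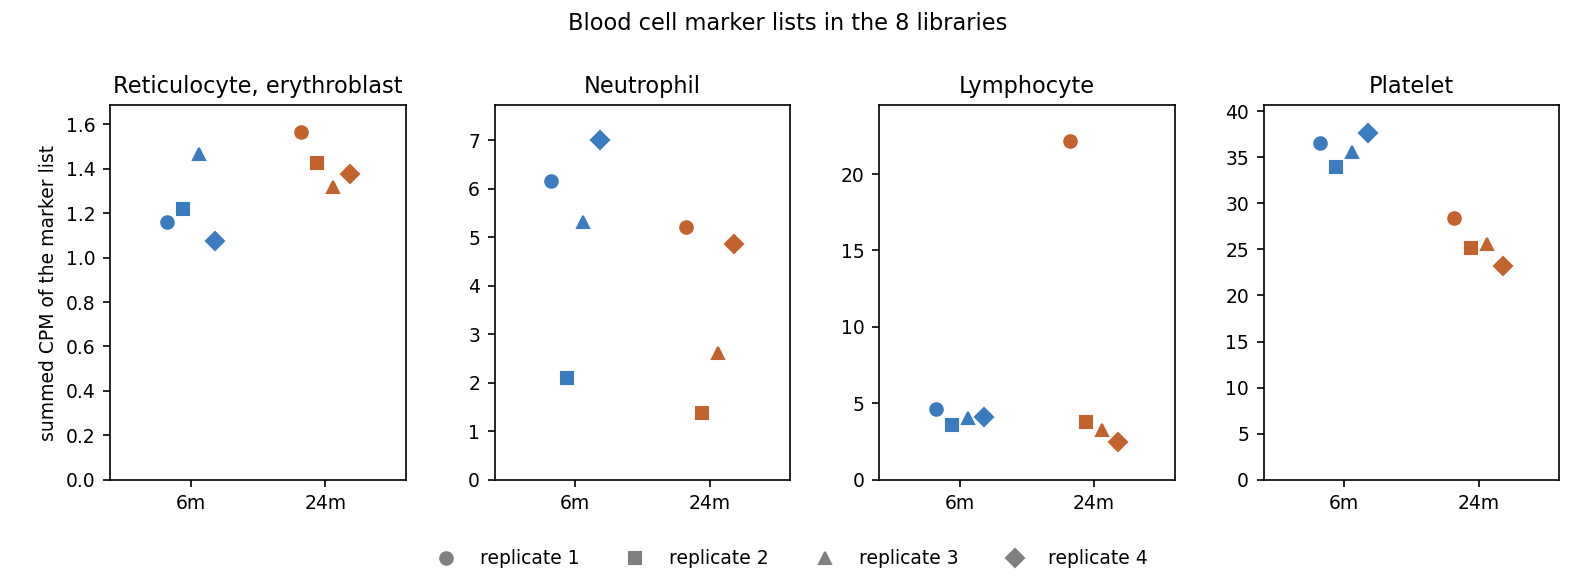
Summed CPM of the marker lists of 4 kinds of blood cell (vertical axes, each from 0) in the libraries of each age. The reticulocyte and erythroblast sum stays under 1.57 CPM in every library but 24m replicate 1, which is at 1.57 CPM, the lymphocyte sum of that library is 22.1 CPM, and the platelet sums separate the ages.

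Markers of brain endothelial cells, which line the vessels that hold the blood, moved in both directions. Of 12 tested 3 were called lower and 1 higher (median log2 fold change -0.21), with Ly6c1 at -1.26 ± 0.17, Flt1 at 1.24 ± 0.32 and Tie1 at -1.11 ± 0.17. Over all genes tested 18.3% were called lower. Ly6c1 (-0.55) and Flt1 (0.51) were not called with the length trend removed, and Tie1 was the 1 gene called lower (-1.41). The counts were 2 higher and 3 lower without 24m replicate 1 (median -0.01), and 2 higher and 3 lower with library totals alone (median 0.02). Their summed level overlapped between the ages, at 170.5 to 207 CPM at 6m and 136 to 207 CPM at 24m. The lowest sum was that of 24m replicate 1, the aged library with the highest haemoglobin level.

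**Figure D5:**
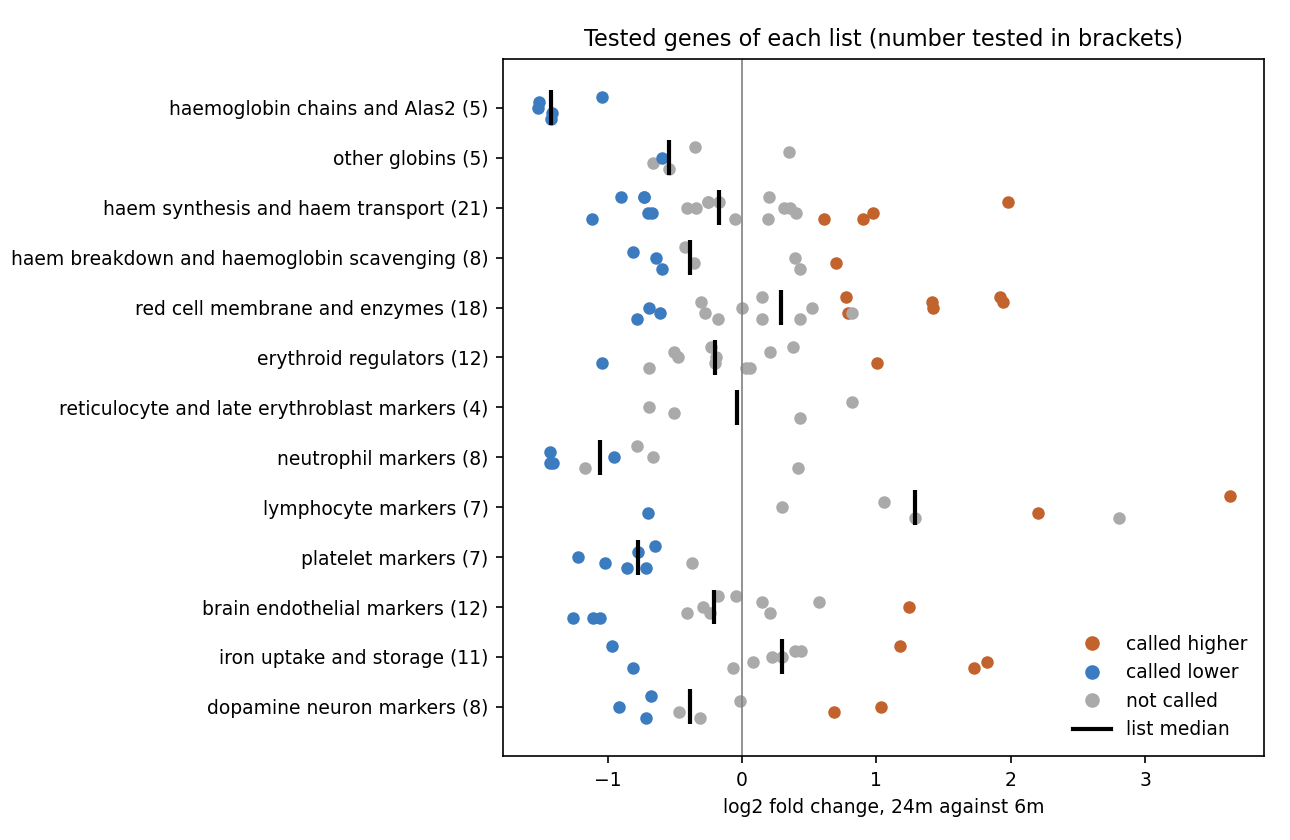
Log2 fold change of 24m against 6m (horizontal axis) of each tested gene in 13 lists, coloured by call, with the median of each list as a black bar. The 4 chain genes lie between -1.52 and -1.41 and Alas2 at -1.04, while the genes of haem synthesis and of the red cell membrane lie on both sides of 0 and the 4 tested reticulocyte markers are not called.

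The genes most like the members were sought among 13560 genes averaging 1 CPM or more, by Pearson r over the 8 libraries with their mean log2 profile after the mean of each age had been subtracted. The 10 highest were Vill (0.994), Cdkn2c (0.994), Slc7a6os (0.992), Sfi1 (0.988), Mok (0.981), Kash5 (0.980), Myl4 (0.980), Hexd (0.979), Cd209f (0.977) and Meig1 (0.975). Of these, 4 were called lower (Mok, Kash5, Myl4 and Meig1) and none higher, with Myl4 lowest at -1.10 ± 0.18 and Cd209f at -0.01 ± 0.45. The choice depended on the scaling, since only 2 of the 10 were kept with library totals alone and 5 of 10 without the subtraction.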

How the data were processed

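As the labels and the published methods state, the authors trimmed reads with Trim Galore, aligned them to GRCm39 with HISAT2 2.1.0 and counted them per gene with featureCounts. The deposited values are whole-number counts per gene and library, not normalized, from 4 libraries per age. Strand and multimapping settings were not given in the sources used here. Gene identifiers were matched to GENCODE symbols (22281 of 22430, the 149 others holding 0.31% of counts). A gene was tested if over 5 counts were seen in 4 or more libraries. The main test was glmQLFTest of edgeR 4.0.16 under R 4.3.3, with TMM factors, no term beside age, and Benjamini-Hochberg adjustment over 16730 genes and the thresholds of the study (0.05 and 0.58). The length trend was removed with a smoothed offset per library (loess span 0.3). CPM were counts per 1000000 library counts, and log2 CPM used a prior count of 2. The coefficient of biological variation was 0.184. Replicate pairs differed by 8.43 to 433 chi-square per degree of freedom over 12 pairs, so each library was counted as a replicate.

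Ratios were compared by exact two-sided permutation over the 70 assignments of libraries. The members and lists were chosen with earlier results of these data known. Named were the 5 members, up to 3 called genes with the largest change and the defining gene of each of the 12 other lists, and the 10 most alike genes. Genes named beyond that rule (Alad, Urod, Fech, Hmox1, Hmox2, Bpgm, Cygb, Itga2b, Gp1ba, Mpo, Gp1bb, Mzb1, Cd3e, Pitx3, Fth1, Ftl1, the theta and embryonic globins and the reticulocyte markers) were picked with their values seen. Some genes that the rule names are not reported here. Alternatives were other scalings, DESeq2 1.42.0, limma-voom (limma 3.58.1), other filters, thinning, length and GC offsets, the replicate block and each library left out. Sequences came from GENCODE transcripts on GRCm39 and from RefSeq promoters on GRCm38.p6, a build used here for sequence alone.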

Additional observations from a re-analysis of the deposited data

Results flagged for a closer look

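The ratio of alpha to beta counts in 24m replicate 1 was 1.15, far from the other 24m libraries at 1.30 to 1.31, and the gap took 0.905 of the range of the group. The summed level of lymphocyte markers in the same library was 22.1 CPM, with a gap of 0.934 of the range. The limit for 4 libraries is 0.829, and chance passes it in about 1 in 20 groups. The levels of the 5 genes themselves did not pass it, with gaps of 0.638 to 0.713 of the range at 24m and 0.423 to 0.522 at 6m.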

How the results depend on the processing

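Each of the 5 genes kept its call as lower under all 22 alternatives, of which 1 was added after the data were seen. The log2 fold changes ranged from -1.78 to -0.66 for Hba-a1, -1.77 to -0.60 for Hba-a2, -1.95 to -0.74 for Hbb-bs, -1.96 to -0.75 for Hbb-bt and -1.40 to -0.78 for Alas2, with the lowest values without 24m replicate 1 and the highest with the length trend removed, and the largest adjusted p was 0.0348 (Alas2 without 24m replicate 3). Library totals alone moved the median of all genes to 0.21, the count of genes called lower from 3058 to 1746 and that called higher from 4237 to 5449, with the members at -1.34 to -0.85. The log2 difference of the alpha to beta ratio ranged from 0.11 to 0.18 when libraries were left out in turn, with the highest value without 24m replicate 1. That of Alas2 per 1000 chain counts ranged from 0.41 to 0.45. Between the fitted log2 fold changes, the mean of the alpha genes exceeded that of the beta genes by 0.10 in the main fit. With the GC trend removed it did so by 0.29. Samples with the same replicate number came from different animals, and their deviations correlated at 0.27, 0.14, 0.08 and -0.35, so the numbers were not read as pairs. With the replicate block the members were at -1.67 to -1.16, all called lower, and the Alas2 ratio stayed at 0.43 with an exact sign-flip p of 0.125, the smallest that 4 pairs allow. Under it 3130 genes were called lower. Of 794 values of gene lists under the alternatives, 107 moved beyond the limits set. Depth limits the reticulocyte markers, at 80 to 162 summed counts per library.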

Other observations

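Hbq1b, a theta globin gene of the alpha cluster whose product is little understood, varied among animals of the same age far more than the adult chains. It was at 16.6, 6.42, 23.0 and 1.89 CPM in the 6m libraries and at 20.3, 0.850, 11.5 and 0.727 CPM in the 24m libraries, in the order of the replicates. High and low libraries occurred at both ages, and the difference between ages did not pass the test (log2 fold change -0.66 ± 1.03, edgeR adjusted p = 0.594). Without 24m replicate 1 the log2 fold change of Hbq1b was -1.66, and the gene was not called either. Its neighbouring copy Hbq1a was at 1.00 ± 0.234 CPM at 6m and 0.794 ± 0.0751 CPM at 24m (SD, n = 4 each).

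Genes of iron uptake and storage were called in both directions. Of 11 tested, 3 were called higher and 2 lower (median log2 fold change 0.30), near the shares over all genes. Of all 16730 genes tested, 4237 were called higher and 3058 lower. Ireb2, an iron sensor that binds messages of iron genes, rose by 1.83 ± 0.29, and Tfrc, the transferrin receptor, rose by 1.73 ± 0.29. Ncoa4, the receptor for ferritin breakdown, rose by 1.17 ± 0.18, while the ferritin subunit genes Fth1 and Ftl1 fell by 0.97 and 0.81 on the log2 scale (edgeR adjusted p = 0.0022 and 0.0028). With the length trend removed Fth1 (-0.24) and Ftl1 (-0.09) were not called, and no gene of the list was called lower in that fit or after quantile normalization, while Ireb2, Tfrc and Ncoa4 were still called higher with the trend removed. Without 24m replicate 1 the list had 4 genes called higher and 2 lower, as it had with library totals alone.

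Dopamine neurons are a cell type in which haemoglobin messages have been described. Of 8 tested markers of these neurons, 3 were called lower and 2 higher (median log2 fold change -0.39), where 18.3% of all genes were called lower. With library totals alone 1 was called lower and 2 higher, and with the length trend removed 3 lower and 1 higher. The counts were again 3 lower and 2 higher when 24m replicate 1 was left out (median -0.32). Slc18a2, the vesicular monoamine transporter, rose by 1.04 ± 0.30, Foxa2 fell by 0.91, and Th, the enzyme that starts dopamine synthesis, fell by 0.71 (edgeR adjusted p = 0.000993). Their within-age correlation with the mean profile of the 5 genes over the 8 libraries, given as a description, ran from -0.913 for Slc18a2 to 0.494 for Pitx3, with Th at 0.128.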
